A study of Mus musculus with 4 samples.

Results

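Chromatin remodellers and modifying enzymes are the genes whose products move nucleosomes, or add and remove chemical marks on histones and DNA. Accessible chromatin was examined at 38 such genes, taken from a list grouped by 6 complexes or activities, out of 21887 protein-coding genes on the assembled autosomes and sex chromosomes. All 38 were found by symbol in the RefSeq gene table of mouse build mm10. ATAC-seq, in which a transposase inserts adapters into DNA that nucleosomes leave exposed, was performed on naive CD4+ T cells from mouse spleen and pLN. There were 2 libraries labelled WT and 2 labelled DDX55 KO. DDX55 is an RNA helicase of ribosome assembly. The sources used here do not state the allele, the cells in which Ddx55 was deleted or the age of the mice, nor whether libraries of a genotype came from separate animals. The data are 1 list of 64525 regions for all 4 libraries together, with a position for each region and no read count. The genotypes could therefore not be compared, and no depth, replicate error or test can be given. Every count or width of regions below is from this joint list, and which genotype a region came from cannot be told; gene lengths and sequence content are from the reference.

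SWI/SNF complexes use ATP to slide or evict nucleosomes, and CHD proteins are further ATP-driven remodellers. Polycomb repressive complex PRC2 methylates a lysine of histone H3 at silent genes, whereas the KMT2 enzymes methylate a different lysine of H3 at promoters and enhancers. DNMT enzymes methylate cytosine in CpG pairs and TET enzymes oxidise that mark, while histone deacetylases and the acetyltransferases EP300 and CREBBP act on histone acetylation. Most of these genes are used in many cell types, and in T cells their products take part in keeping naive cells quiescent and in setting the fate of helper cells.

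The genes of the labelled cell type were accessible. All 10 naive CD4 T cell markers, among them Cd3e, Cd4, Tcf7 and Ccr7, had a region within 1 kb of a gene end. The B cell markers Cd79a, Ms4a1, Pax5 and Blk had none there. Away from the ends, Pax5 and Blk had 5 and 2 regions inside the gene. Cd79a had 4 regions in all, none of them inside, and Ms4a1 had 0. An end region was present in 2 of 5 myeloid markers (Csf1r and Itgam), 1 of 3 natural killer cell markers (Klre1) and 1 of 2 CD8 T cell markers (Cd8b1). Of red cell markers, Klf1 and Epor had an end region and Alas2 had none. The share of other cells in the preparation was not tested.

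Of the 38 genes, 35 had a region within 1 kb of a gene end (92.1%, 95% exact binomial interval 78.6 to 98.3%, covering counting error only). The background was 52.6% of all protein-coding genes. The 3 without one were Chd3, Dnmt1 and Hdac4. Every one of the 38 had at least 1 region in the gene body or within 10 kb of it, whereas 22.9% of protein-coding genes had 0. In all, 226 regions lay in or within 10 kb of these genes: 42 at gene ends, 142 inside genes away from the ends and 42 in the flanks. The gene table gives no exons, so regions inside a gene are not assigned to exons or introns.

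The RefSeq table of start sequences lists at least 1 transcription start for 29 of the 38 genes. Smarce1, Arid2, Chd1, Chd2, Chd3, Chd7, Kmt2b, Hdac1 and Hdac3 have no entry. Of the 29, 28 had a region within 1 kb of a listed start, against 53.7% of 17492 protein-coding genes with an entry. Dnmt1 and Hdac4, without a region at a gene end, belonged to the 28: 2 of the 3 listed starts of Dnmt1 and the listed start of Hdac4 lie inside the annotated gene and had a region. The exception was Smarcd2, a SWI/SNF subunit, whose listed start also lies inside the annotated gene. The nearest upstream region, 5078 bases from that start, lay at the upstream end of the gene model.

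The bases just upstream of the listed start differed widely between these genes. Shown are the 150 bases before the listed start, 5′ to 3′ on the gene's strand, from RefSeq on GRCm38.p6 (mm10), with CpG pairs in capitals. In each complex the gene with the widest region near a listed start was taken. Smarcd2 follows, the gene without a region at its listed start, which lies inside the gene model and not at its accessible upstream end.
Smarcb1 (chr10:75921615-75921764, - strand): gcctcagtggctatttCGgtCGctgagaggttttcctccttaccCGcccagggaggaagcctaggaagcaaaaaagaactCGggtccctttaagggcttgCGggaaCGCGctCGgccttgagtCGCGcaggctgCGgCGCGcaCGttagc
Chd8 (chr14:52257761-52257910, - strand): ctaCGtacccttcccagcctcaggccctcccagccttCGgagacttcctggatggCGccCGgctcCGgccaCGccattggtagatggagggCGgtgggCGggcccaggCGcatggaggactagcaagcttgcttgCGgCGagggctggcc
Ezh2 (chr6:47595031-47595180, - strand): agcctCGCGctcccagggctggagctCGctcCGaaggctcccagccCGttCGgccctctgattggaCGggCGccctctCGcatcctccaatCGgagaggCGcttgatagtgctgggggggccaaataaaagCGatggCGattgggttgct
Kmt2c (chr5:25498784-25498933, - strand): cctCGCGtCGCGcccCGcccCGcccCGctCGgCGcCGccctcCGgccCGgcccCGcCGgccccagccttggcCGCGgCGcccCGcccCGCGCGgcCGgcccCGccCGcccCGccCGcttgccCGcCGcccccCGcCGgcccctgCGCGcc
Tet2 (chr3:133544391-133544540, - strand): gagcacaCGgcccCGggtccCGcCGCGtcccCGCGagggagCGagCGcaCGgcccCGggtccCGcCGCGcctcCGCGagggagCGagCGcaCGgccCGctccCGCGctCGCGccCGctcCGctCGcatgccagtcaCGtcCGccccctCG
Ep300 (chr15:81586064-81586213, + strand): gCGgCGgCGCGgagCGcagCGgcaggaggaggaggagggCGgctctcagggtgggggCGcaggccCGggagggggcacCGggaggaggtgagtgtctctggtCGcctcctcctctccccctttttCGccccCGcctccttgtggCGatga
Smarcd2 (chr11:106267633-106267782, - strand): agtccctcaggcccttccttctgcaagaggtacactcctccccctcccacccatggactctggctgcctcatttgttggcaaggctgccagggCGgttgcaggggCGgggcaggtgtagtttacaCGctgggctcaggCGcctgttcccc
The first 6 stretches, from genes with a region within 1 kb of the start, hold 11 (Chd8) to 32 (Kmt2c) CpG pairs in these 150 bases, and Smarcd2 holds 4. The start of Kmt2c itself lay between regions, and the other 5 starts were under a region. In Kmt2c and Tet2 the pairs run through nearly the whole stretch, and in Smarcd2 they sit in its last part.

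Dnmt1, the maintenance DNA methyltransferase, carries the same contrast within a single gene. It has 3 listed starts on the minus strand of chromosome 9, and they are shown in the same way, a choice made after the values were seen.
Dnmt1 upstream start (chr9:20959889-20960038, - strand): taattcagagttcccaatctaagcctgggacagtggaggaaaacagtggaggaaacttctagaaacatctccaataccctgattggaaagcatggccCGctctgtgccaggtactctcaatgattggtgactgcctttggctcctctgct
Dnmt1 middle start (chr9:20952980-20953129, - strand): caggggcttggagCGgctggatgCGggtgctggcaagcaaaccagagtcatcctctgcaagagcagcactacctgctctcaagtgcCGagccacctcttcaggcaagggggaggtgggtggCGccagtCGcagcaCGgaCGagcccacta
Dnmt1 downstream start (chr9:20952624-20952773, - strand): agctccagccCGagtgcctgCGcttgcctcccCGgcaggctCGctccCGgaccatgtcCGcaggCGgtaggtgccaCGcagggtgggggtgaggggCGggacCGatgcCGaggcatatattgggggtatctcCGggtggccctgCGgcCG
The upstream start, at 20959888, holds 1 CpG pair and had no region within 1 kb; the nearest upstream region was 1661 bases away. The middle and downstream starts, at 20952979 and 20952623, hold 7 and 14 pairs, and a single region of 797 bp (20952373 to 20953169) covered both.

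CpG content at the start was high in this group. CpG pairs in the 300 bases around the first listed start (250 before, 50 after) were counted relative to the number that the C and G content would give. This observed over expected ratio had a median of 0.90 over the 29 genes, from 0.101 at Dnmt1 to 1.17 at Tet2, against 0.576 over all 17492 genes. Among all genes the share with a region within 1 kb of that start was 8.14% for ratios up to 0.2, 52.1% for 0.4 to 0.6, 86.4% for 0.8 to 1 and 88.2% above 1. Of the 29 genes, 27 had a region at the first listed start (93.1%). Taking for each gene the share of its CpG class gave a mean of 78.1%, which lies between that 93.1% and the 52.3% of all genes. The 2 without a region, Smarcd2 and Dnmt1, were the 2 genes in the class up to 0.2. In both classes above 0.8 every gene of the group had a region within 1 kb of the start, 13 of 13 and 6 of 6, though not always over the start itself. Within Hdac7, which has 4 listed starts, the order seen in Dnmt1 was mixed. The start with a ratio of 0.185 had no region within 1 kb, but that with 0.283 had a region of 854 bp. The starts with 0.795 and 1.09 had only a region of 229 bp.

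Short motifs were searched on both strands of the same 300 bases, each independently of overlap with another. The GC box GGGCGG was present at 25 of 29 starts (86.2%), against 46.3% of all starts and 66.9% of starts with a region. This motif holds only G and C, and the medians of G and C content were 69.7, 56.3 and 61.3% in these sets. The shares were not matched for that content. CCAAT was present at 8 (27.6%, against 39.0% of all starts and 39.9% of those with a region). The ETS core CCGGAA was present at 7 (24.1%), above the 19.1% of all starts and below the 30.7% of starts with a region. The NRF1 core GCGCATGCG was found at the first listed starts of Smarcb1 and Smarcc1, which is 2 of 29 (6.9%, against 2.41% of all starts and 4.11% of those with a region). The YY1 core AAGATGGCG was found at Smarcd1 alone (3.4%, against 1.94 and 3.52%). The cyclic AMP response element TGACGTCA was found at 0 of 29 starts, 2.34% of all starts and 3.63% of those with a region. TATAAA was found at 1 start, that of Smarcd2, against 13.3% of all starts and 6.49% of those with a region. These are letter matches and do not show binding.

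A region close to a start did not always cover the start itself. A region covered the base of a listed start in 21 of the 29 genes, against 46.1% of all genes with an entry. Among genes with a region within 1 kb of the first listed start, the base was covered in 20 of the 27 chromatin genes (74.1%), below the 84.6% of all such genes. The 7 others were Kmt2a, Kmt2c, Kmt2d, Dnmt3a, Tet1, Hdac7 and Crebbp. At Kmt2c, Dnmt3a and Crebbp a region lay on each side with the start between them. For Kmt2c, the nearest regions were 288 bases upstream and 880 bases downstream of the start. The distances were 245 and 904 bases for Dnmt3a, and 618 and 697 bases for Crebbp. At Kmt2a the only region within 1 kb, 367 bp wide, ended 100 bases upstream of the start.

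Most of these uncovered starts were rich in G and C. The 300 bases held 88.0% G and C at Kmt2c, 82.3% at Dnmt3a, 82.0% at Crebbp and 75.7% at Kmt2a. Medians were 75.7% over the 7 uncovered and 69.5% over the 20 covered starts of the group, and the ranges overlapped (61.7 to 88.0% and 54.7 to 81.3%). Smarcc2 (81.0%) and Tet2 (81.3%) were covered. Over all genes with a region at the first listed start, covered and uncovered starts had nearly the same median (61.3 and 61.2%), but the classes of highest G and C differed: the start was covered in 91.1% where G and C made up 60 to 70%, 76.5% at 70 to 80% and 26.1% above 80%. Regions on both sides only were seen at 0.896, 5.20 and 30.6% of these starts. Coverage was lower at low G and C too, with 72.6% at 40 to 50% and 35.2% up to 40%. Of the 198 genes above 80%, 5 were Kmt2c, Dnmt3a, Crebbp, Smarcc2 and Tet2. These G and C classes were set after the values were seen, and what leaves these starts uncovered was not tested.

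**Figure D1:**
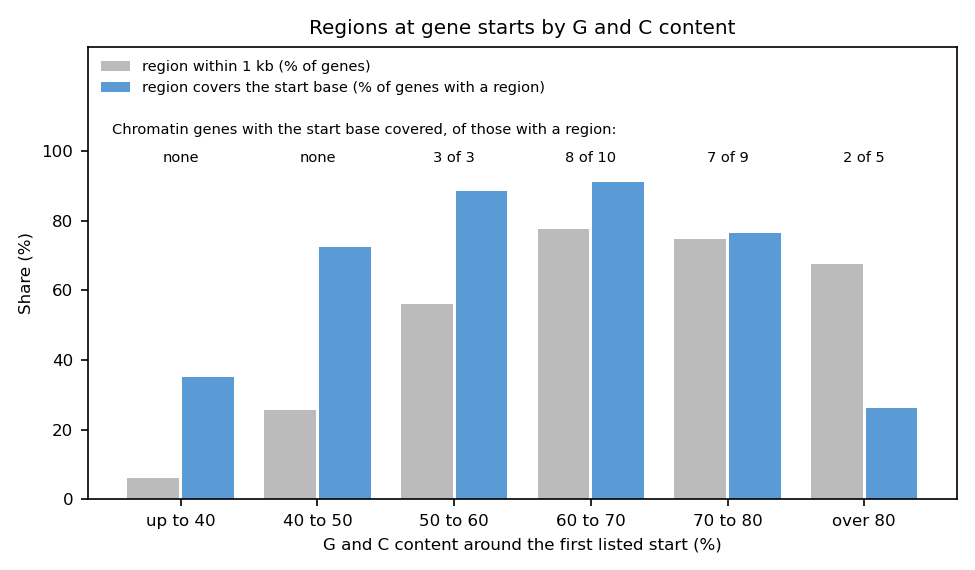
Share of protein-coding genes (y axis, %) with a region within 1 kb of the first listed start (grey) and, among those, with a region covering the start base (blue), by G and C content of the 300 bases around the start (x axis, %). The blue bars fall from 91.1% at 60 to 70% to 26.1% above 80%, and the numbers on top give the chromatin genes, 8 of 10 and 2 of 5 in these classes. The blue bars are also lower at low G and C, with 72.6% at 40 to 50% and 35.2% up to 40%.

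SWI/SNF subunits. Each of the 11 genes had an end region, and the count in the gene and its flanks had a median of 3 (range 1 to 22). Arid1b, which encodes a DNA-binding subunit of the canonical complex, had the most of the 38 genes, with 22 regions over 353 kb on chromosome 17 (4994297 to 5347656). Of these, 2 lay at its 5′ end, where 462 bp (4994935 to 4995396) covered the listed start, and 20 lay inside the gene. Its paralog Arid1a had 10 regions over 77.8 kb on chromosome 4 (133679008 to 133756769), with a region of 1033 bp at the start. Per 100 kb of gene and flanks, Arid1a held 10.2 regions and Arid1b 5.89. Arid2, the corresponding subunit of the PBAF form, had 4.

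The paired ATPases also differed in their counts. Smarca2 (BRM) had 7 regions, 6 of them inside the gene, over 173 kb, whereas Smarca4 (BRG1) had 3 over 88.1 kb. Their start regions were 992 and 767 bp wide. The core subunits Smarcb1 and Smarcc1 and the accessory subunits Smarcd2 and Smarce1 each had 3, and Smarcc2 had 4, of which 3 were flanking regions next to Myl6 or Myl6b. Smarcd1 had the fewest, a single region of 706 bp over its start (99702013 to 99702718 on chromosome 15), also within 1 kb of an end of Asic1. At Smarcd2 a region of 545 bp lay over the upstream end of the gene model (106272710 to 106273254 on chromosome 11), at an end of Tcam1 too.

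CHD remodellers. Of 6 genes 5 had a region at an end, and the median count was 5.5 (range 3 to 17). Chd7, best known as the gene mutated in CHARGE syndrome, had 17 regions over 178 kb on chromosome 4 (8690402 to 8868449), 14 of them inside the gene. Its end region, of 404 bp (8689893 to 8690296), stopped just short of the gene model, whereas 3 inside regions were 822, 862 and 900 bp wide. Chd1 and Chd2, which act at transcribed genes, had 7 each, and Chd1 had 2 neighbouring regions (759 and 646 bp) at its lower-coordinate end.

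Chd3 and Chd4 encode alternative ATPases of the NuRD complex, and each had 3 regions. In Chd4 a region of 708 bp covered both listed starts, and a further one of 788 bp lay at the far end, next to Nop2. Chd3 had none at an end. Its only inside region was 1063 bp wide (69366169 to 69367231 on chromosome 11), 2.27 kb from the nearer end. Its widest region, of 1126 bp, lay in the flank, 1.75 kb from an end. Chd8, with 4 regions, and Chd4 were the 2 genes with a region at both ends, against 5.92% of protein-coding genes. At Chd8 the far region, of 634 bp, also lay at an end of Supt16.

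Polycomb genes. The 4 PRC2 genes had few regions, from 1 to 2 each (7 in all), and each had a region covering its start. Per 100 kb of gene and flanks they held 2.16 (Eed) to 3.61 (Ezh1), below the median of 3.82 over all protein-coding genes. Each was also below the median for genes in its class of length (3.41 to 4.19). By count, Ezh1 and Suz12 equalled the median of that class, whereas Ezh2 and Eed lay below it. Ezh2, the methyltransferase prominent in dividing cells, had a region of 1715 bp at its start (47593918 to 47595632 on chromosome 6), the second widest end region of the 38 genes. Its only other region was 102 bp wide and inside the gene. Ezh1, the paralog prominent in resting cells, had a region of 537 bp at the start and 1 of 423 bp inside. Eed, which binds the methyl mark that PRC2 makes, had 1 region alone, of 1615 bp (89980024 to 89981638 on chromosome 7), and Suz12, the scaffold subunit, had 1 of 690 bp at its start and 1 of 412 bp in the flank. With only 7 regions, the median of the 4 genes moved between 1 and 3.5 with the flank size and the handling of narrow or end regions.

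KMT2 methyltransferases. All 4 genes had a region at an end, with a median count of 7 (range 4 to 10). Kmt2a (MLL1) had 10 regions over 78.0 kb on chromosome 9 (44803355 to 44881352), 6 of them inside the gene, at 10.2 per 100 kb. Of these 10, 6 were 106 to 222 bp wide, and the widest at the end was the 367 bp region just upstream of the start. Kmt2c (MLL3) had 9 over 227 kb on chromosome 5 (25271795 to 25498855), of which 6 inside regions were 119 to 299 bp wide. Kmt2d (MLL4) had 5, and its listed start lies inside the gene model, with a region of 714 bp beginning 679 bases upstream of it; the region at an annotated end, 423 bp, lay at the 3′ end and near Prkag1. Kmt2b (MLL2) had 4, of which 3 were flanking regions and 1, of 860 bp, lay at its higher-coordinate end next to Zbtb32. Counting only regions of at least 300 bp lowered the median of the 4 genes from 7 to 4.

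DNA methylation enzymes. Of 6 genes 5 had a region at an end and all 6 had one at a listed start, with a median count of 5 (range 3 to 14). Dnmt3a, the de novo methyltransferase of mature lymphocytes, had 14 regions over 113 kb on chromosome 12 (3801559 to 3914443), 11 of them inside the gene. All 3 of its listed starts lay between regions rather than under them. The start furthest downstream, at 3891744, had a region of 713 bp ending 88 bases upstream and another beginning 295 bases downstream. In its paralog Dnmt3b there were 3 regions, with 858 bp over the start. Regions covered 6.35% of the Dnmt3a gene, the highest share of the 38 genes, and 3.53% of Dnmt3b.

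Tet3 had 14 regions over 94.8 kb on chromosome 6 (83362373 to 83457208), or 12.2 per 100 kb, the highest density of the 38 genes. Its listed start lies inside the gene model and was covered by a region of 347 bp (83441391 to 83441737), with a wider one of 876 bp next to it on the downstream side. The outer end of the gene model had a region of 564 bp. Tet1 had 6 regions and Tet2 had 4, over genes of similar length (82.9 and 81.5 kb). Tet2, often mutated in clonal blood disorders, had 2 wide regions side by side at its start (1030 and 886 bp). Tet1 had 2 narrow ones at its start (375 and 280 bp).

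Acetylation enzymes. Of 7 genes 6 had a region at an end, with a median count of 4 (range 2 to 15). The class I deacetylases Hdac1, Hdac2 and Hdac3 had 4, 3 and 3 regions with wide end regions of 1036, 1368 and 1737 bp. The Hdac3 region was the widest at an end in the group and also lay at ends of Fchsd1 and Rell2. Class IIa deacetylases, which shuttle between nucleus and cytoplasm with T cell signalling, had more regions. Hdac4 had 15 over 267 kb on chromosome 1 (91928779 to 92195702), all inside the gene; a region of 735 bp, 14.7 kb from the nearer end of the gene model, covered its listed start, and the widest, 1319 bp (92127470 to 92128788), lay 52.2 kb downstream of the start. Hdac7 had 8 over 51.8 kb, or 11.1 per 100 kb. It has 4 listed starts, of which 3 had a region within 1 kb and 0 were covered; the widest inside region, 1014 bp (97836652 to 97837665 on chromosome 15), lay between starts.

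The paralogous acetyltransferases, which differ in length, differed in region count and in whether the start was covered. Ep300 had 2 regions over 65.9 kb: a region of 1609 bp over its start (81584718 to 81586326 on chromosome 15) and 1 of 146 bp inside. Crebbp had 7 over 133 kb, and no region covered its start. The region at its end was 449 bp (4214022 to 4214470 on chromosome 16), and 5 lay inside the gene, each at most 222 bp wide.

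**Figure D2:**
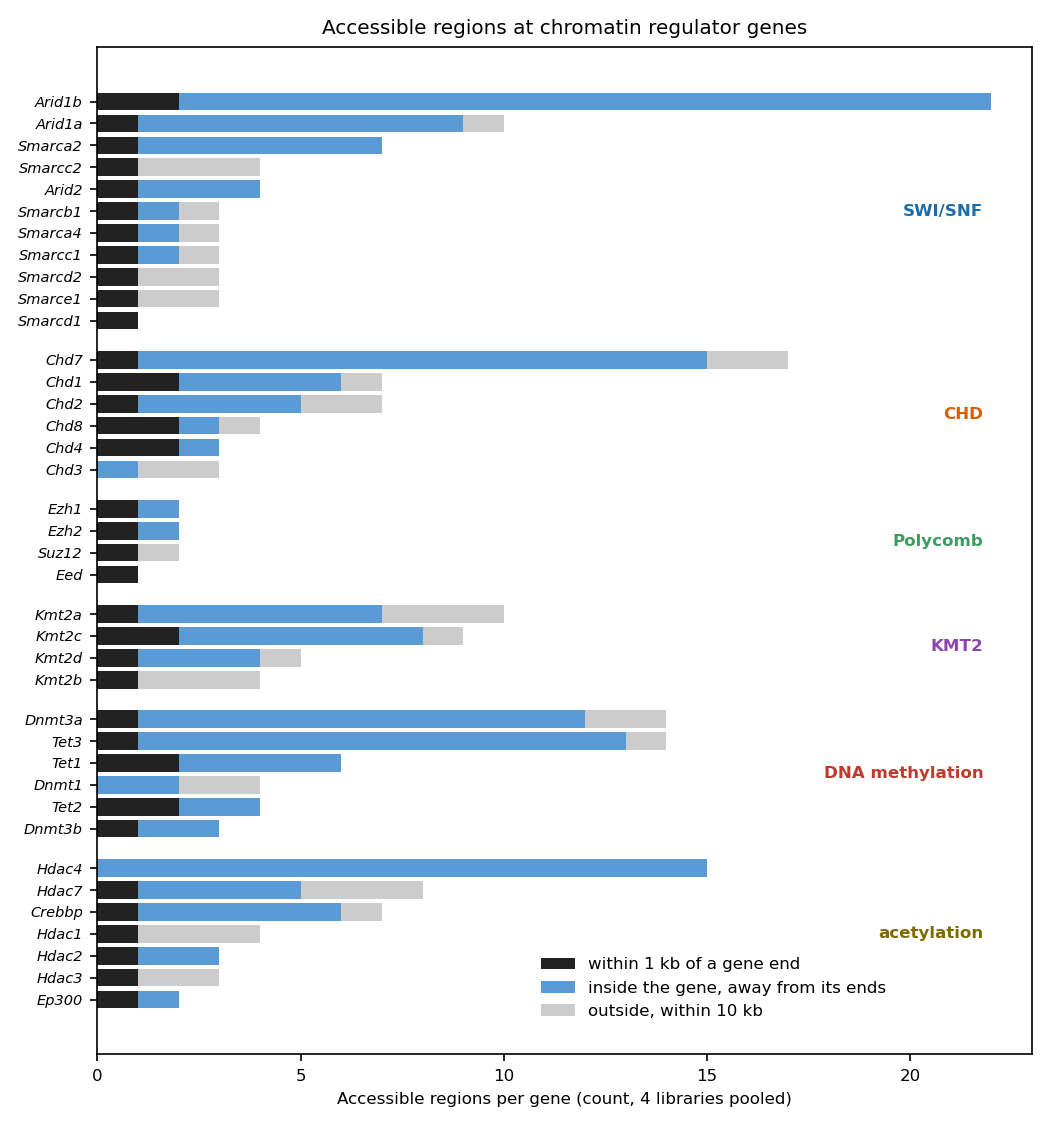
Number of accessible regions (x axis, all 4 libraries pooled) at each of the 38 genes (y axis, grouped by complex), split into regions within 1 kb of a gene end (black), inside the gene away from its ends (blue) and outside it within 10 kb (grey). Arid1b (22), Chd7 (17) and Hdac4 (15) have the longest bars, made up mostly of inside regions, and the Polycomb genes have 1 or 2 regions each.

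Counts rose with gene length. The 38 genes had a median length of 62.4 kb (range 9.83 to 353 kb), against 17.2 kb over all protein-coding genes, and their median count was 4 against 2. Spearman's correlation of length with count was 0.689 over the 38 genes and 0.512 over all genes; it is a description across genes, which share the same 4 libraries. Genes were therefore also set against 1 of 10 length classes with equal numbers of genes. The count was above the median of that length class for 29 of the 38 genes, equal to it for 4 and below it for 5, whereas 39.3% of all genes were above their class median. The 5 below were Smarcd1, Arid2, Ezh2, Eed and Ep300. An end region was present in 48.6 to 64.4% of the genes in the length classes that hold these 38, with a mean of 59.5% over the 38 genes.

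**Figure D3:**
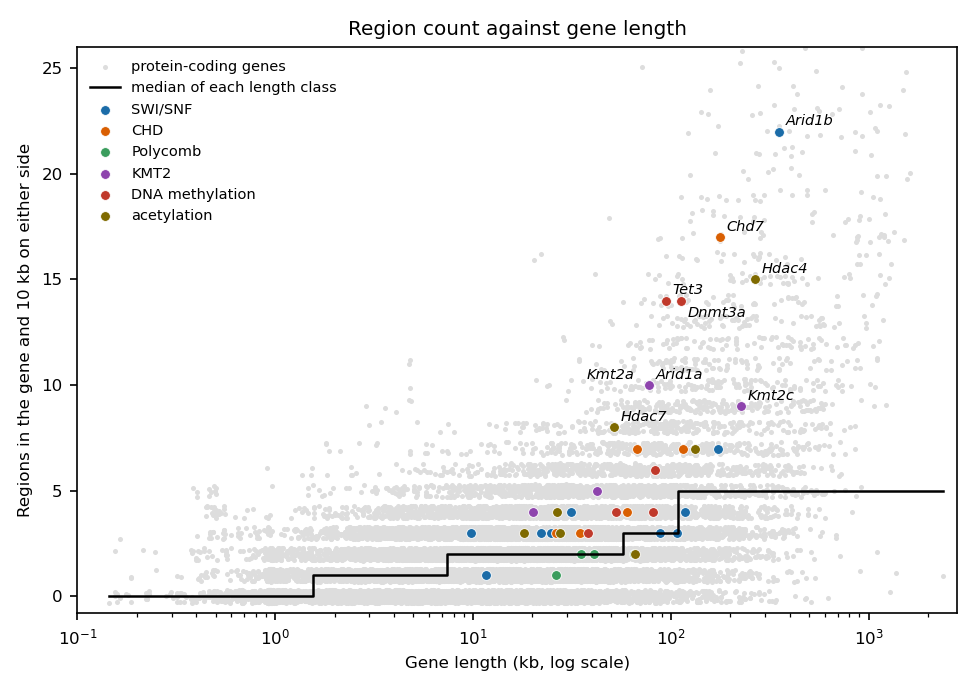
Regions in the gene and 10 kb on either side (y axis, count) against gene length (x axis, kb, log scale) for protein-coding genes (grey, shifted slightly at random in height) and the 38 chromatin genes (coloured by complex), with the median of each of 10 length classes as a black line. Of the 38 genes, 29 lie above the line, and Arid1a lies under the point of Kmt2a at 10 regions; 26 grey genes with over 26 regions lie beyond the upper limit of the plot.

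Regions inside genes were unevenly spread over the group. At least 1 was present in 29 of the 38 genes, against 38.7% of all protein-coding genes, and more than 5 in 9, against 5.20%. These 9 were Smarca2, Arid1a, Arid1b, Chd7, Kmt2a, Kmt2c, Dnmt3a, Tet3 and Hdac4. Neither share of all genes is matched for length. The group is longer (median 62.4 kb against 17.2 kb), with 25 of the 38 genes in the longest 3 length classes. Inside regions were not counted by length class. The 5 genes with the most (Arid1b, Hdac4, Chd7, Tet3 and Dnmt3a) held 72 of the 142 inside regions (50.7%). Widths of inside regions ranged from 97 to 1319 bp with a median of 355 bp, against 279 bp over all genes. Genes with a listed strand held 116 of the 142 inside regions. Chd7, with 14 inside regions, has no listed strand and was left out of what follows. Of the 116 regions, 104 lay over 1 kb from any listed start. Of these, 67 (64.4%) had their middle nearer the 5′ end than the 3′ end of the gene, against 51.2% of 18300 such regions over all genes. The count was 8 of 10 for Tet3, 9 of 14 for Hdac4, 5 of 6 for Kmt2c and 5 of 7 for Dnmt3a. It was 11 of 20 for Arid1b, 4 of 7 for Arid1a, 3 of 6 for Kmt2a and 2 of 6 for Smarca2.

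**Figure D4:**
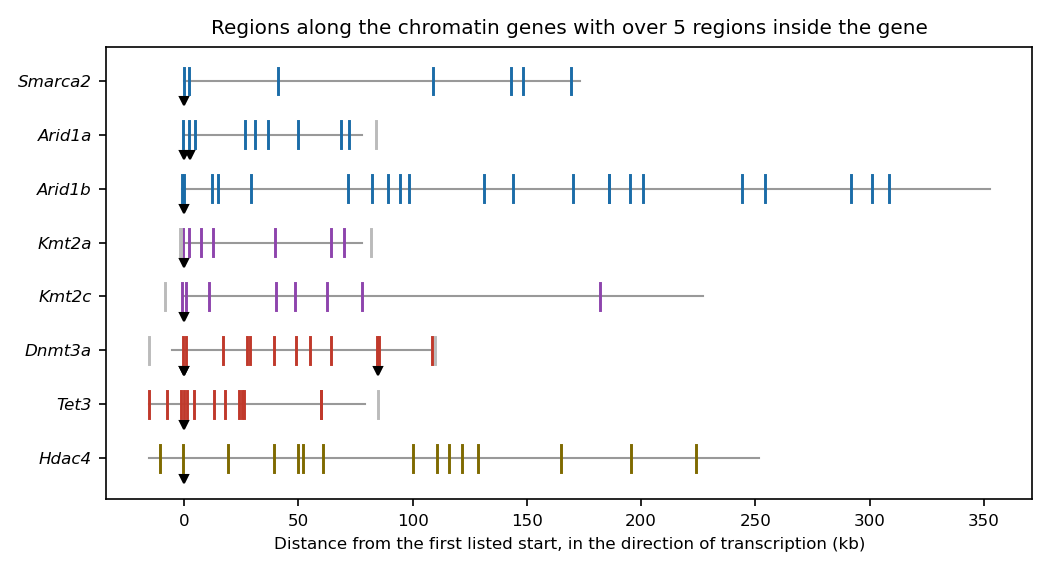
Positions of regions (vertical ticks, at the region's middle) along the 8 genes with over 5 inside regions and a listed start, as distance from the first listed start in the direction of transcription (x axis, kb); grey lines are gene models, grey ticks regions over 1 kb outside the gene, and black triangles listed starts. Ticks crowd near the start of Tet3, and are spread along Arid1b and Hdac4.

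The widths of end regions were spread much as in other genes. The widest region at an end had a median of 815 bp over the 35 genes with one, close to the 809 bp of the 11515 protein-coding genes with one. The range ran from 261 bp at the 3′ end of Dnmt3a to 1737 bp at Hdac3. Above the upper quartile of all genes (1035 bp) lay 9 genes (25.7%), and below the lower quartile (566 bp) lay 10 (28.6%), where quartiles of all genes give 25% each. Beyond the 5 widest (Hdac3, Ezh2, Eed, Ep300 and Hdac2), those above were Smarcb1, Arid2, Smarce1 and Hdac1. Genes with more inside regions tended to have narrower end regions: Spearman's correlation was -0.418 over the 35 genes and -0.00883 over all genes with an end region. Gene length was also correlated with end width in the group (-0.338, against 0.0472 over all genes), and the 2 were not separated. Which end was measured matters too. For Dnmt3a and Kmt2d it was the 3′ end, whereas their widest regions at a listed start were 713 and 714 bp. Merging regions less than 500 bp apart changed the median width to 856 bp.

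**Figure D5:**
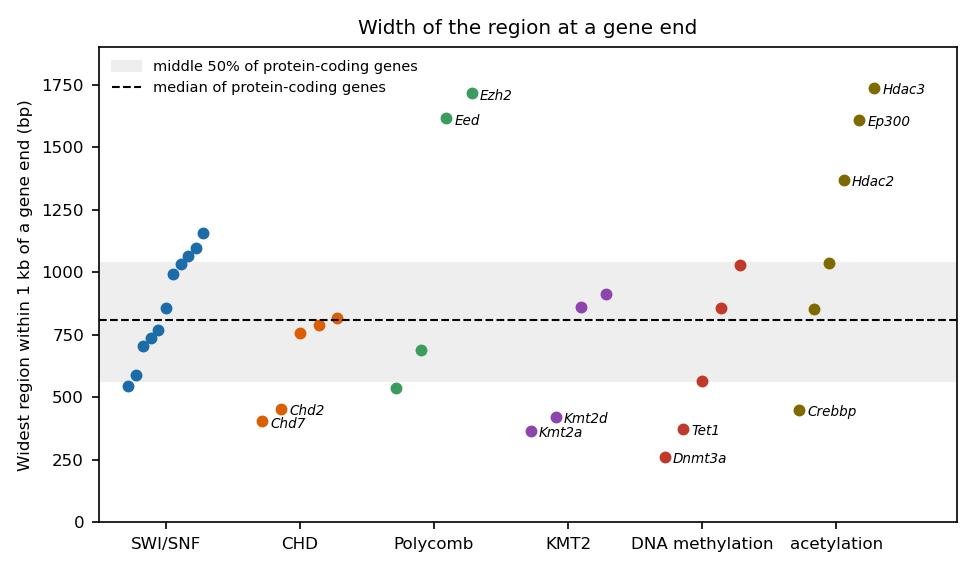
Width of the widest region within 1 kb of a gene end (y axis, bp) for the 35 genes that have one, by complex (x axis; points in order of width), with the median (dashed line) and middle 50% (grey band) of all protein-coding genes with an end region. Ezh2, Eed, Hdac3, Ep300 and Hdac2 lie far above the band, and Dnmt3a, Kmt2a, Tet1, Chd7, Kmt2d, Crebbp and Chd2 lie below it with Ezh1, Smarcd2 and Tet3 just under its edge.

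Some end regions cannot be credited to a single gene. In 8 of the 38 genes an end region also lay within 1 kb of an end of another protein-coding gene, against 15.4% of all protein-coding genes. Among genes with an end region, the share was 22.9% in the group and 29.3% over all genes, so the higher share turned into a lower one. The genes were Smarcd1 (with Asic1), Smarcd2 (Tcam1), Arid2 (Gm38469), Chd4 (Nop2), Chd8 (Supt16), Kmt2b (Zbtb32), Kmt2d (Prkag1) and Hdac3 (Fchsd1 and Rell2). Of the 30 other genes, 90.0% had an end region.

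The partners and relatives of these enzymes were examined as a further list of 90 chromatin genes. A region lay at a gene end in 78 of the 90 (86.7%), and their median count was 3. These 90 genes are shorter, with a median length of 31.8 kb against 62.4 kb for the 38 genes. Per 100 kb of gene and flanks the medians were 5.5 and 5.67 regions. The 12 without an end region were Smarcd3, Dpf1, Chd5, Smarca1, Mta1, Bmi1, Cbx7, Ash2l, Dpy30, Dnmt3l, Hdac9 and Sin3a. Of these, Cbx7, Dpy30 and Sin3a had a region at a listed start inside the gene model. Smarca1, an X-linked ISWI ATPase, was the only one of the 90 with 0 regions. Chd5 and Dpf1 had 1 and 2 regions and none at a listed start, and Dnmt3l had 2 and none at its 3 listed starts. Hdac9, the class IIa relative of Hdac4 and Hdac7, had 16 regions inside a gene of 870 kb and none at its 2 listed starts. Jarid2, a PRC2 cofactor, had 12 regions over 191 kb, more than each of the 4 PRC2 genes above, which span 26.3 to 65 kb. Per 100 kb of gene and flanks it held 5.69, against 2.16 to 3.61 in those 4.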

How the data were processed

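Naive CD4+ T cells gave 4 ATAC-seq libraries, whose reads the authors processed on mm10. The submitters' processing notes name the trimmer fastp (0.12.4), the aligner Bowtie2 (2.5.08), the peak caller MACS3 (3.0.0b1) and SAMtools (1.15.1). Not stated in the sources used here are the way in which peaks of separate libraries became 1 list, the peak threshold, any exclusion list, and the treatment of duplicates and of the transposase offset. The deposited list has 3 columns (sequence, start, end), with no score and no value per library, so depth is unknown. A narrow or split region can reflect the peak threshold as well as the chromatin.

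Of the 64525 regions, 64233 lie on assembled chromosomes and were used. Positions were converted to 1-based coordinates and set against RefSeq gene positions and listed starts of GRCm38.p6 (mm10), with 1 bp as the smallest overlap. A region was at an end within 1 kb of an annotated gene end, at a start within 1 kb of a listed start, inside when it overlapped the gene elsewhere, and flanking within 10 kb. The counting was tested on regions placed at known positions. The genes, complexes and further list were chosen with earlier results of these data known, so no test over them was run. All 38 genes are named; full values went to those with the most, fewest, widest, both-end or no end regions, or over 5 inside. Alternatives were other windows and flanks, region middles, regions of at least 300 bp and merging of neighbours. Python 3.11.15, pandas 2.3.3, NumPy 2.4.6, SciPy 1.17.1 and Matplotlib 3.10.9 were used. Some marker genes of other cell types are not reported here.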

Additional observations from a re-analysis of the deposited data

How the results depend on the processing

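Of 108 values recomputed under other settings, 96 stayed within the limits set for them (the 95% interval of a share, 1 SD over genes for a median, 1.5 times for a count). The limit for a median was wide. Over the 38 genes the SD of the region count was 4.84, above the median of 4. The number within limits therefore says little about how stable the medians were. The share of the 38 genes with an end region ranged from 86.8% (500 bp windows, or the region's middle) to 97.4% (2 kb windows). The median of the 4 Polycomb genes moved from 2 to 1.5 with 5 kb flanks, in the gene body alone or with regions of at least 300 bp, to 3.5 with 20 kb flanks, and to 1 without regions at gene ends. With regions of at least 300 bp, that of the KMT2 genes moved from 7 to 4 and that of the acetylation genes from 4 to 2. In the gene body alone, the median of all 38 genes moved from 4 to 2.5 and that of the CHD genes from 5.5 to 3.5, and with 20 kb flanks that of the SWI/SNF genes moved from 3 to 5. Genes that share an end region fell from 8 to 5 with 500 bp windows. The background of 52.6% at gene ends was 54.1% on autosomes, 48.8% and 57.8% with windows of 500 bp and 2 kb, and 48.0% with regions of at least 300 bp. Starts of over 80% G and C were covered in 37.3% rather than 26.1% when regions less than 500 bp apart were merged, an alternative chosen after the values were seen. The cause of these shifts was not tested beyond what each setting leaves out or joins. No paired analysis was possible because the list carries no values per library, so no library could be left out either.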
